A study of Trichechus manatus latirostris with 11 samples.

Results

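Genes of voltage-gated sodium, calcium and potassium channels, of HCN pacemaker channels and of transient receptor potential (TRP) channels were examined in buffy coat, the leukocyte fraction of blood, of the Florida manatee. A row of the table is a RefSeq transcript record, and a row was taken when its TriManLat1.0 gene symbol began with SCN and a number followed by A or B, with CACNA, CACNB or CACNG, with KCN and a further letter, with HCN and a number, or with TRPA, TRPC, TRPM or TRPV and a number. This gave 64 of 15298 rows, for 62 genes, because SCN2A and KCNAB2 had 2 rows each. Of the 151 symbols of the RefSeq table that fit this description, the other 89 were not analysed here.

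RNA was sequenced from 11 adult Florida manatees after depletion of ribosomal and globin RNA. The red tide group comprised 4 animals brought to Lowry Park Zoo for treatment of illness from brevetoxins, the neurotoxins of the alga Karenia brevis. The study describes 2 of them as sampled on arrival and 2 after 1 week of treatment. The control group comprised 7 animals: 4 sampled at Crystal River, 2 at the Indian River Lagoon in Brevard County, and 1 at the zoo during recovery from pneumonia. The labels describe storage in RNAlater, while the methods of the study also describe freezing for the red tide group, so place, date and possibly storage cannot be told apart from group. Each value is a normalised count, the reads of a row divided by the size factor of the library, a scaling factor estimated from its counts. The table gives the authors' mean over 4 libraries and over 7 libraries without naming the groups in its columns. The group sizes match those of the red tide and control animals, and the title of the table sets 7 others against red tide, which are the grounds for pairing the 4 libraries with red tide. The study's own use of up- and downregulated runs against this pairing. CXCR2, which it lists as 9.15-fold upregulated, had means of 65.4 over the 4 libraries and 598 over the 7. The labels give 4 red tide and 7 control animals, so the group sizes fit this pairing only. The values cannot settle why the study's words run the other way. No direction below is therefore tied to red tide or control, and the groups are called the 4-library and the 7-library group.

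Voltage-gated channels open when the potential across the cell membrane changes. The alpha subunits of sodium channels form the pore and carry the site to which brevetoxins bind, while the beta subunits adjust gating and placement in the membrane. White blood cells do not fire action potentials, but lymphocytes use potassium channels to hold the membrane potential that drives calcium entry, and TRP channels admit sodium and calcium in response to heat, lipids or receptor signals.

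Reads of single libraries were recovered from the means where whole reads could give the deposited value in 1 way only. This was possible in all 11 libraries for 45 of the 64 channel rows and for 61 in the group of 4. The libraries are numbered within each group by falling size factor: 1.56, 1.03, 0.620 and 0.372 in the 4-library group, and 1.73, 1.53, 1.19, 1.17, 1.11, 1.10 and 0.702 among the 7. Total reads per library do not follow from means, and the size factor is given in their place, though it is not a count of reads. The libraries carry no name that links them to an animal, or to sampling on arrival or after treatment.

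Libraries 3 and 4 of the 4-library group, those with the smallest size factors of all 11, stood apart. The 45 channel rows with reads recovered in every library summed to 563 and 635 normalised counts in them, against 88.5 and 149 in libraries 1 and 2 and 43.3 to 140 in the 7-library group. A larger sum was not particular to channels. All 4719 rows with reads recovered in every library summed to 45212 and 45845 in libraries 3 and 4, and to 13177 and 16017 in libraries 1 and 2. In the 7-library group they summed to between 8110 and 14621. These rows are limited to a 7-library mean of at most 8. Over all 10144 rows with reads recovered in the 4-library group, the sums in libraries 1 to 4 were closer, at 205321, 203725, 253555 and 255724. The 61 channel rows among them summed to 371, 426, 1273 and 1106. Library 3 or 4 held the highest value of the group in 51 of the 61 channel rows (83.6%), against 65.3% of the 10144 rows with reads recovered in that group. Channel results are therefore given with and without these libraries where their reads were recovered.

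**Figure D1:**
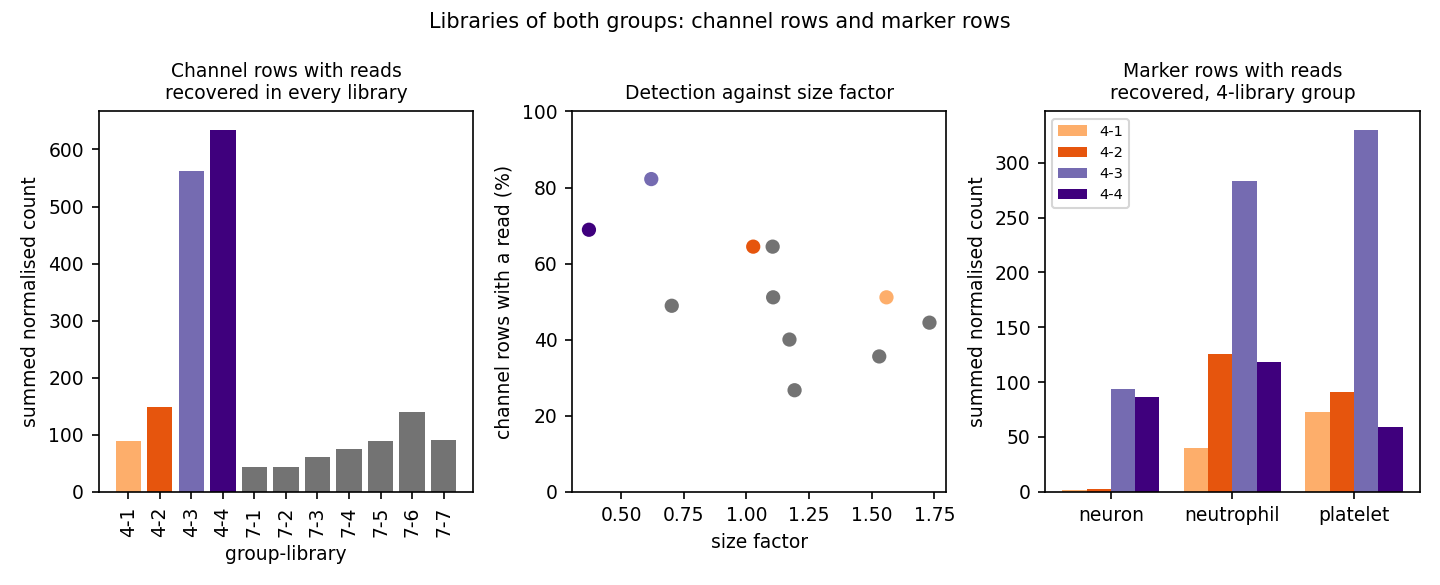
Left: summed normalised count of the 45 channel rows with reads recovered in every library, 1 bar per library (group-library). Middle: percentage of these rows with a read against the size factor, in the same colours (grey, 7-library group). Right: summed normalised count of the neuron, neutrophil and platelet marker rows with reads recovered in the 4-library group. Libraries 4-3 and 4-4 reach 563 and 635 in the left panel, and the neuron markers sum to 93.5 and 86.1 in them.

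Of the 64 channel rows, 50 had a higher mean in the group of 4 and 14 a higher mean in the group of 7. Their log2 ratio of means (4-library over 7-library) had a median of 0.98, against 0.14 over all 15298 rows, and the count at 2-fold was the same, 31, after centring on the latter. The 4-library mean was at least 2-fold higher in 31 channel rows (48.4%), where 23.9% of all rows passed the same fold, and in 0 rows was the 7-library mean at least 2-fold higher, where 10.4% of all rows passed. Most channel rows were weakly expressed: 46 had a mean under 10, and ratios of weak rows ran high throughout the table. Among rows with reads recovered in every library, 62.2% of the channel rows and 55.5% of all rows passed 2-fold in favour of the 4-library mean. Reads were recovered up to a 4-library mean of 100 but only up to a 7-library mean of 8, a limit that selects rows with larger ratios. Without libraries 3 and 4, the median over the 61 channel rows with reads recovered in the group was -0.0038 and that over all 10144 such rows was -0.20; 16 channel rows (26.2%) then passed 2-fold toward the 4-library mean and 15 (24.6%) toward the 7-library mean, 7 of the latter with no read left, where 18.1% and 27.9% of all such rows passed. In such bulk samples, fewer cells of a type and less RNA per cell cannot be told apart.

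**Figure D2:**
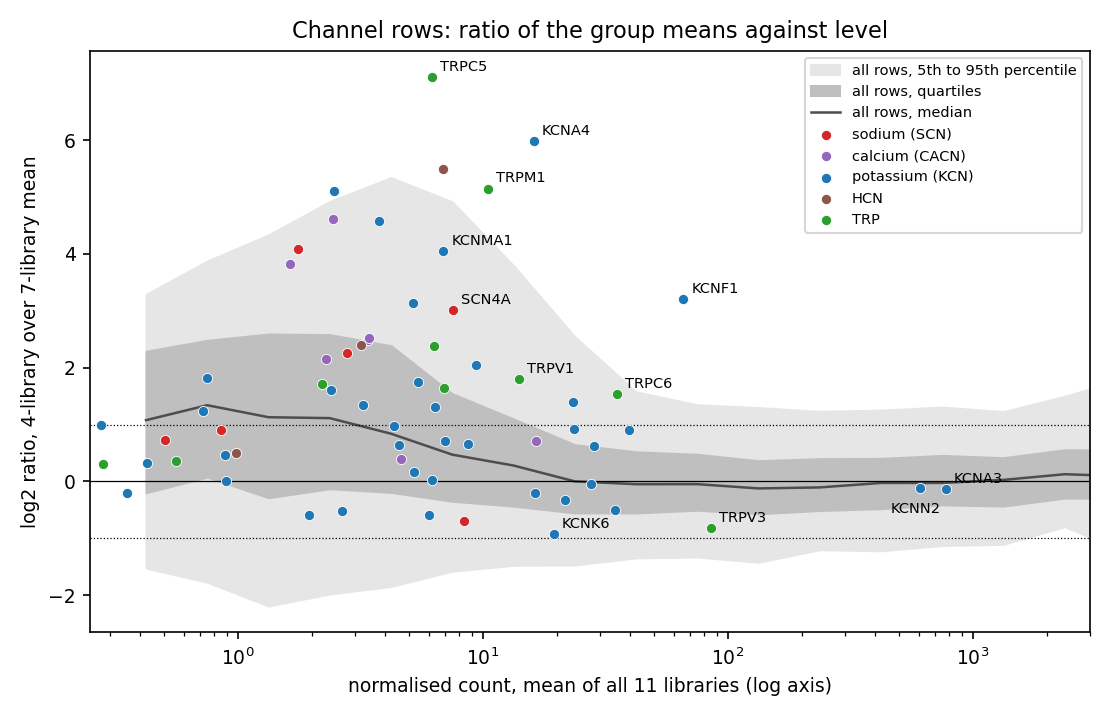
Log2 ratio of means, 4-library over 7-library (vertical axis), against the mean normalised count of all 11 libraries (horizontal, log axis), 1 point per channel row. Grey bands and line give the percentiles and median of all rows by level, and dotted lines mark 2-fold. Most weak channel rows lie within the wide band of weak rows, while KCNA3 and KCNN2 lie close to 0.

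Limma, fitted to log2(normalised count + 0.5) over the 3802 rows with reads recovered in every library and at least 10 reads in total, tested 35 channel rows. At a Benjamini-Hochberg adjusted p under 0.05 it called 7 of them higher in the 4-library group, among them KCNA4, TRPM1, KCNMA1, TRPV1, TRPC5 and SCN4A. That is 20% of the channel rows tested, where 8.89% of all rows tested were called in this direction. Limma called 0 channel rows lower, against 0.0263% of all rows. The limit of 8 on the 7-library mean left little room for such calls, and the 16 channel rows above it were not tested. Limma's unadjusted p was under 0.05 in 13 channel rows, all of them higher, as in 24.8% of all rows in either direction. The exact permutation test, adjusted over all rows in the same way, called 0 rows of any kind, with 9 channel rows and 697 rows in all at an unadjusted p under 0.05. The groups did not overlap in 1 channel row, KCNA4, where the 4 libraries were the higher ones, as in 3.42% of all rows tested; they were the lower ones in 0 channel rows and 0.132% of all rows. Without libraries 3 and 4 limma called TRPV1 alone among the channel rows, and 21 of 3159 rows in all. Where both means were held to at most 8, it called 0 of 21 channel rows and 0 of 2652 rows, with 4 of the channel rows and 11.1% of all rows at an unadjusted p under 0.05. With no filter on reads it called 3 of 45 channel rows (KCNA4, KCNMA1 and TRPM1) and 5.89% of all rows. Single libraries also moved the count: limma called 1 channel row without library 3 (TRPV1; 1.79% of all rows) and 1 without library 4 (KCNA4; 2.55%) of the 4-library group. Without library 1 of the 4-library group it called 10 of 34 channel rows and 19.5% of all rows, and without library 2 it called 6 of 33 and 11.3%. It called 2, 3, 3 and 3 channel rows without libraries 1, 2, 3 and 5 of the other group, where it called 6.93%, 6.56%, 6.94% and 7.07% of all rows.

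The skeletal muscle sodium channel SCN4A (XM_004374216.1), an alpha subunit, had normalised counts of 2.57, 6.81, 29.0 and 29.6 in libraries 1 to 4 of the 4-library group. In the 7-library group the lowest value was 0, the median 0.839 and the highest 8.15. Values above every library of the 7 came from libraries 3 and 4, whereas libraries 1 and 2 lay within their range. The means were 17.0 ± 14.3 (SD, n = 4) and 2.10 ± 2.96 (SD, n = 7), which rested on 40 and 17 reads. The 4-library mean was 8.08-fold higher, with an exact two-sided permutation p of 0.0424, where the smallest p the design allows is 0.00606. On the log2 scale limma gave a difference of 2.99 ± 1.05 (SE), with an adjusted p of 0.0490 that ranged from 0.0124 to 0.704 over the alternatives. Leaving out any of libraries 2, 3 and 4 of the 4-library group or libraries 1 to 5 of the 7-library group ended the call, with adjusted p from limma of 0.0532 to 0.238, as did fitting with no filter on reads (0.0568). Without libraries 3 and 4 the ratio was 2.23, limma's adjusted p 0.704 and the exact permutation p 0.389, in a comparison that cannot give a p below 0.0556.

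The brain sodium channel SCN2A was represented by 2 records, which share a gene and are not independent. XM_004375562.1 had normalised counts of 2.57, 0, 6.45 and 13.5 in the 4 libraries, and 0 to 2.85 with a median of 0 in the 7. As for SCN4A, libraries 3 and 4 lay above the 7 libraries and the other two did not. The difference did not pass the test (exact two-sided permutation p = 0.158), with 13 reads against 9. The 4-library mean was 4.81-fold higher with every library, 2.57-fold without library 4 and 1.10-fold higher without libraries 3 and 4. XM_004375563.1 had 3 reads in the 4-library group, all in library 3, and 5 reads in 2 of the 7 libraries, so that without library 3 its difference turned toward the 7. Its ratio of 1.87 had a 95% Poisson interval of 0.386 to 5.47 from the 3 reads alone, and the exact permutation p was 0.727. No difference was detectable for this record at this depth.

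Among the beta subunits, SCN3B (XM_004388995.1) went the other way from SCN4A, with 13.5, 1.95, 3.22 and 5.38 normalised counts in the 4 libraries and a 7-library mean of 9.71. The spread over the 7 libraries is not known for SCN3B, and library 1, not 3 or 4, held the highest value of the 4. Its ratio was 0.619, and 0.362 without library 1 and 0.794 without libraries 3 and 4. SCN4B (XM_004385673.1) had 1 read among the 4 libraries and 2 reads among the 7, too few for a ratio.

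**Figure D3:**
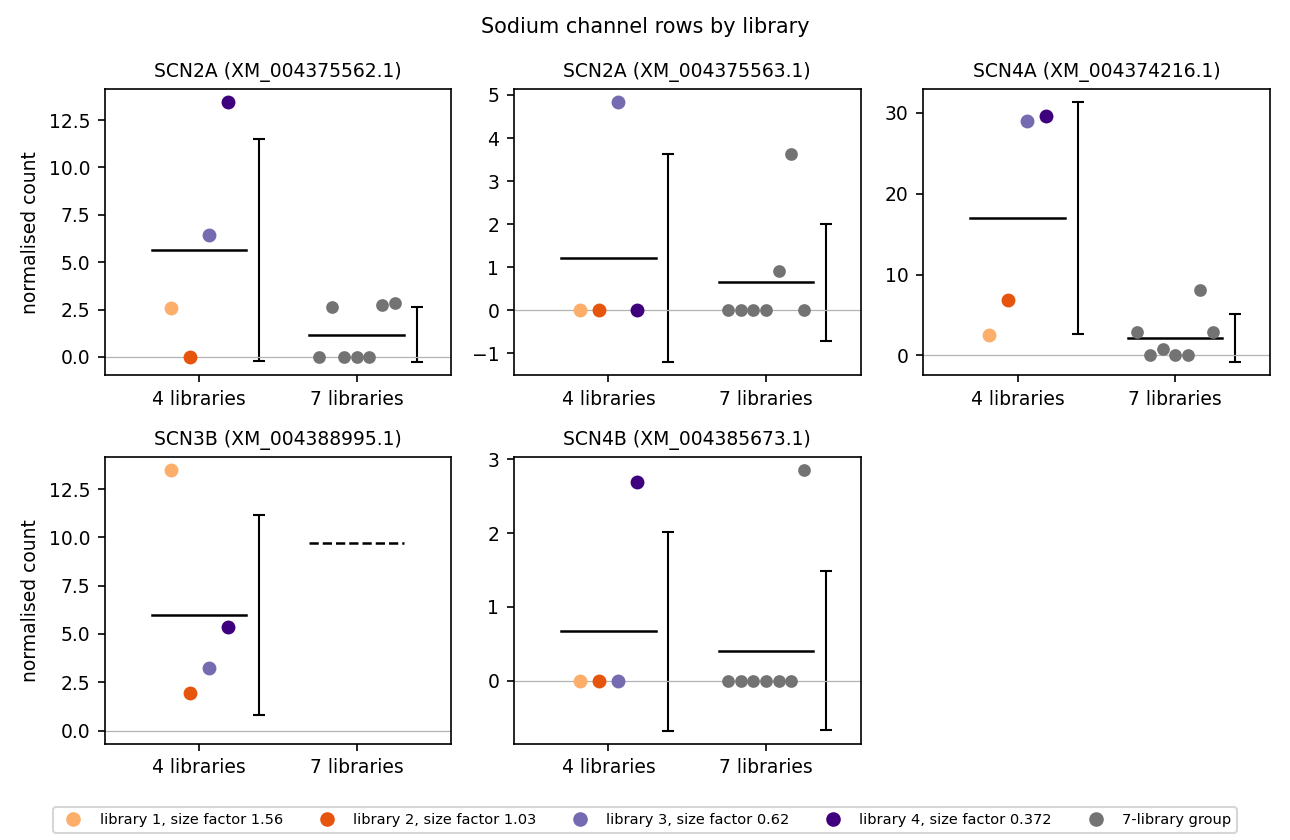
Normalised count of 5 sodium channel rows by library, with the mean (horizontal line) and SD (error bar) of each group. The dashed line of SCN3B is its 7-library mean of 9.71, for which single libraries are not known. Libraries 3 and 4 carry the highest values of SCN4A, at 29.0 and 29.6.

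All 7 calcium channel rows had a higher 4-library mean, as had 8629 of all 15298 rows. Their median log2 ratio, 2.49, became -0.07 without libraries 3 and 4. With every library, no calcium channel row passed limma's test. The T-type pore subunit CACNA1I (XM_004373878.1) had 0.641, 0.974, 8.06 and 18.8 normalised counts in the 4 libraries and 0 to 5.70 with a median of 0.578 in the 7. CACNA1S (XM_004375359.1), the L-type pore subunit of skeletal muscle, had 0, 1.95, 8.06 and 18.8, and 0 to 4.57 with a median of 0. In both genes libraries 3 and 4 lay above the 7 libraries and libraries 1 and 2 within their range. The ratios of 5.63 and 5.71 became 0.638 and 0.771 without libraries 3 and 4, so that their direction turned. Limma's log2 difference stayed positive there, at 0.18 ± 1.22 (SE) for CACNA1I and 0.20 ± 1.18 (SE) for CACNA1S. The measures thus differ in sign without these libraries. Without library 4 alone the ratios were 2.55 and 2.64. The exact permutation p was 0.103 for CACNA1I and 0.133 for CACNA1S. Limma called CACNA1S without library 1 of the 4-library group (log2 difference with every library 1.97 ± 1.06 SE, adjusted p 0.229; 0.0383 without that library, in a range of 0.0383 to 0.590 as each was left out).

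The auxiliary subunits CACNA2D3 and CACNB1 did not show that pattern. CACNA2D3 (XM_004368627.1), an alpha2delta subunit that promotes delivery of the pore to the membrane, had 37.2, 6.81, 0 and 43.0 normalised counts in the 4 libraries against a 7-library mean of 13.4, and its ratio was 1.63 with and 1.65 without libraries 3 and 4. CACNB1 (XM_004378019.1), a beta subunit, had 2.57, 0, 3.22 and 16.1 in the 4 libraries and 0 to 14.5 with a median of 2.56 in the 7. The groups of CACNB1 overlapped over nearly their whole range (exact permutation p = 0.764), and its ratio of 1.31 was 0.462 without library 4 and 0.307 without libraries 3 and 4.

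Potassium channel rows made up 38 of the 64, with a median log2 ratio of 0.69; 14 (36.8%) passed 2-fold toward the 4-library mean, against 23.9% of all rows. Without libraries 3 and 4, the median over the 35 rows with reads recovered in the group was -0.45, and 7 (20%) passed 2-fold toward the 4-library mean and 11 (31.4%) toward the 7-library mean, against 18.1% and 27.9% of all such rows. KCNA4 (XM_004369741.1) forms channels with a rapidly inactivating current, and it was the channel row with the smallest adjusted p. Its normalised counts were 2.57, 9.74, 90.3 and 69.9 in the 4 libraries, and in the 7-library group they ran from 0 to 1.81 with a median of 0. All 4 libraries lay above all 7, although library 1 did so by less than 1 normalised count. The means were 43.1 ± 43.6 (SD, n = 4) and 0.682 ± 0.878 (SD, n = 7), on 96 and 6 reads, a ratio of 63.2. KCNA4 came to the 10 reads needed through the 4-library group; with no filter on reads the adjusted p from limma was 0.00167. Limma gave a log2 difference of 4.53 ± 1.07 (SE) and an adjusted p of 0.00163, between 0.000128 and 0.515 over the alternatives, and the exact permutation p was 0.00606, the smallest possible. The call was lost without library 3 of the 4 (adjusted p from limma 0.0551, ratio 40.2) and without libraries 3 and 4 (0.515), where the ratio was 9.02.

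KCNMA1 (XM_004383183.1) is the pore of the BK channel, which opens to calcium and voltage together. It had 0, 8.76, 27.4 and 32.3 normalised counts in the 4 libraries, and in the 7-library group all 8 reads came from library 5, at 7.23. Libraries 2, 3 and 4 lay above every library of the 7, and library 1 had no read. The means were 17.1 ± 15.3 (SD, n = 4) and 1.03 ± 2.73 (SD, n = 7), a ratio of 16.6 with an exact permutation p of 0.0485. With 38 reads against 8, KCNMA1 came to the 10 reads needed through the 4-library group. With no filter on reads its adjusted p from limma was 0.0379. Limma gave a log2 difference of 3.45 ± 1.08 (SE) and an adjusted p of 0.0240, between 0.000519 and 0.689 over the alternatives. The call was lost without library 3 or 4 of the 4-library group or library 1 of the 7 (adjusted p from limma 0.0505 to 0.155), and without libraries 3 and 4 together (0.689, ratio 4.24). Its partner KCNMB2 (XM_004385093.1), a subunit that inactivates BK channels, had 0, 8.76, 25.8 and 10.8 in the 4 libraries and a 7-library mean of 7.17, and its ratio of 1.58 was 0.908 without library 3 and 0.611 without libraries 3 and 4.

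KCNF1 (XM_004373058.1), an electrically silent subunit that modifies other potassium channels, had means of 151 and 16.4 normalised counts, a ratio of 9.22. Its reads could not be recovered in either group, so this ratio has no error and could not be taken without libraries 3 and 4. By contrast, the lymphocyte channel KCNA3 (XM_004390416.1), which holds the membrane potential of T cells, had means of 729 and 800, a log2 ratio of -0.13. KCNN2 (XM_004376984.1), a small-conductance channel opened by calcium through calmodulin, had means of 578 and 628, a log2 ratio of -0.12. Both ratios lay near 1, and single libraries were not recovered at these levels.

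The inward rectifiers, which pass current more readily into the cell, differed among themselves. KCNJ2 (XM_004374179.1) had 32.1, 42.8, 46.7 and 32.3 normalised counts in the 4 libraries against a 7-library mean of 14.7. All 4 libraries lay above that mean, and the ratio of 2.62 was 2.55 without libraries 3 and 4. KCNJ10 (XM_004390204.1), known from glia and kidney, had 7.70, 19.5, 30.6 and 51.1 against 38.8, and KCNJ5 (XM_004379331.1), a channel opened by G proteins, had 25.7, 10.7, 29.0 and 43.0 against 28.1. For KCNJ10 and KCNJ5 the 7-library mean lay inside the range of the 4 libraries. Their ratios of 0.702 and 0.966 were 0.350 and 0.648 without libraries 3 and 4.

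Of the two-pore channels, which carry the resting leak of potassium, KCNK6 (XM_004388136.1) had 12.8, 20.4, 8.06 and 8.07 normalised counts in the 4 libraries against a 7-library mean of 23.5. All 4 libraries lay below that mean, and its log2 ratio of -0.93 was the lowest of the 64 rows and was -0.50 without libraries 3 and 4. Centred on the median of all rows, KCNK6 was the 1 channel row at least 2-fold higher in the 7-library mean. KCNK5 (XM_004379424.1) had 12.2, 21.4, 19.3 and 21.5 against 23.2, all 4 below it, with a ratio of 0.802, or 0.723 without libraries 3 and 4. KCNK1 (XM_004391384.1) had 35.9, 13.6, 53.2 and 43.0 against 23.7, with 3 of the 4 libraries above, and its ratio of 1.54 was 1.05 without libraries 3 and 4.

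The cytoplasmic subunit KCNAB2, which binds the pore of voltage-gated potassium channels, also had 2 records. XM_004385104.1 had 8.98, 0, 0 and 16.1 normalised counts in the 4 libraries and 2.61 to 12.6 with a median of 3.62 in the 7, where every library had reads. Its mean was 1.02-fold higher in the 4-library group while limma's log2 difference was -1.17 ± 0.97 (SE, adjusted p = 0.478), so the measures differ in sign and the exact permutation p was 0.939. XM_004385105.1 had 4.49, 1.95, 6.45 and 5.38 against a 7-library mean of 6.89, with all 4 libraries below it. Without libraries 3 and 4 the ratios of these records were 0.732 and 0.467, and without library 4 alone that of the former was 0.488.

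The HCN channels open on hyperpolarisation and pace rhythmic firing in neurons and heart. HCN3 (XM_004388518.1) had 3.85, 1.95, 9.67 and 10.8 normalised counts in the 4 libraries and 0 to 4.53 with a median of 0 in the 7; it was not called (log2 difference 2.43 ± 1.09 SE, adjusted p from limma 0.136; exact permutation p = 0.0364), and its ratio of 5.30 was 2.34 without libraries 3 and 4.

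Of the 10 TRP rows, 9 had a higher 4-library mean, as had 8629 of all 15298 rows, and limma called 3 of the 6 tested, against 8.89% of all rows tested. The median log2 ratio was 1.68, and 0.98 without libraries 3 and 4. TRPV1 (XM_004376247.1), the receptor for capsaicin and noxious heat, had 26.3, 49.6, 8.06 and 18.8 normalised counts in the 4 libraries and 0 to 14.5 with a median of 5.42 in the 7. Here libraries 1, 2 and 4 lay above every library of the 7, and library 3 was the lowest of the 4, unlike in SCN4A, KCNA4, KCNMA1, TRPM1 and TRPC5. The means were 25.7 ± 17.6 (SD, n = 4) and 7.38 ± 5.29 (SD, n = 7), on 104 and 57 reads, a ratio of 3.48. The log2 difference from limma was 1.97 ± 0.67 (SE) with an adjusted p of 0.0403, between 0.0167 and 0.171 over the alternatives, and the exact permutation p was 0.0242. Without libraries 3 and 4 the ratio was 5.14 and the adjusted p from limma 0.0167. The call was lost without library 1, 2 or 4 of the 4-library group or library 1, 2, 3 or 5 of the 7 (adjusted p from limma 0.0539 to 0.171), and with no filter on reads (0.0682).

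TRPM1 (XM_004372631.1), a channel of retinal bipolar cells and melanocytes, had 0, 8.76, 41.9 and 59.2 normalised counts in the 4 libraries and 0 to 3.61 with a median of 0 in the 7. Libraries 2, 3 and 4 lay above the 7 libraries and library 1 had no read. The means were 27.5 ± 27.8 (SD, n = 4) and 0.775 ± 1.42 (SD, n = 7), a ratio of 35.4 with an exact permutation p of 0.0485. With 57 reads against 6, TRPM1 came to the 10 reads needed through the 4-library group. With no filter on reads its adjusted p from limma was 0.0271. Limma's log2 difference was 3.63 ± 1.09 (SE), with an adjusted p of 0.0189, between 0.000336 and 0.724 over the alternatives. The call was lost without library 3 or 4 of the group of 4 (adjusted p from limma 0.149 to 0.157) and without both (0.724, ratio 5.65); the ratio was 21.8 without library 4 alone.

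TRPC5 (XM_004379783.1), a receptor-operated channel best known from brain, had 0, 0.974, 9.67 and 56.5 normalised counts in the 4 libraries and a single read in the 7-library group, at 0.853. Of the normalised counts of the 4 libraries, 98.5% were in libraries 3 and 4, and 3 of the 4 lay above every library of the 7. That single read left the ratio of 138 with a 95% Poisson interval of 24.7 to 5438, with an exact permutation p of 0.0485. Limma's log2 difference was 2.98 ± 1.01 (SE) with an adjusted p of 0.0405, between 0.00224 and 0.176 over the alternatives that left it at least 10 reads. Leaving out library 3 of the 4-library group, or any library of the 7 except library 4, ended the call (adjusted p from limma 0.0568 to 0.176), as did fitting with no filter on reads (0.0557). TRPC5 came to the 10 reads needed through the 4-library group, which held 28 of its reads against 1, and without library 4 of the 4-library group too few reads were left to test. The ratio was 29.1 without library 4 and 3.99 without libraries 3 and 4.

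**Figure D4:**
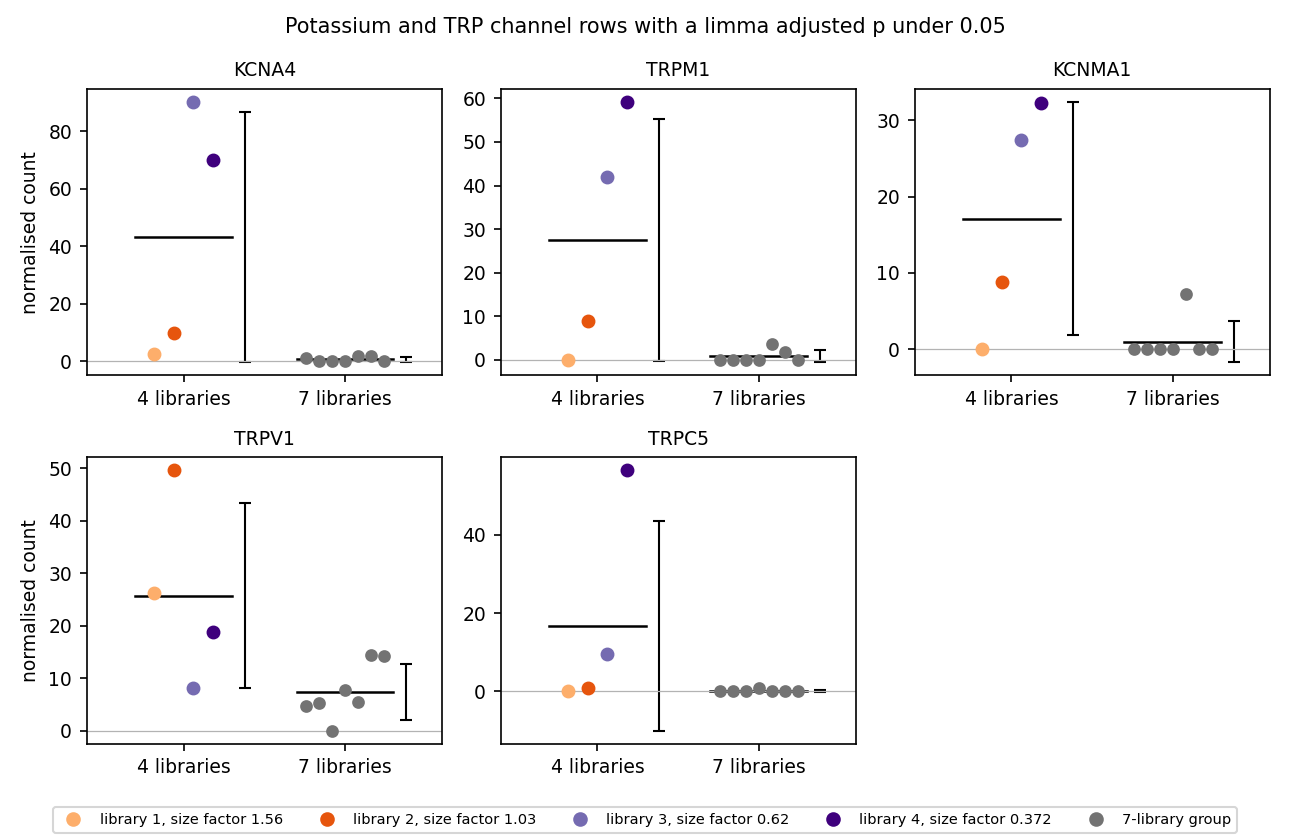
Normalised count by library of the channel rows KCNA4, TRPM1, KCNMA1, TRPV1 and TRPC5, called by limma, with the mean (horizontal line) and SD (error bar) of each group. The highest of the 4 libraries are 3 and 4 in KCNA4, TRPM1, KCNMA1 and TRPC5, and library 2 is the highest in TRPV1, at 49.6.

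TRPC6 and TRPV3 had reads recovered in the group of 4 only. TRPC6 (XM_004385868.1), a channel opened by diacylglycerol that is present in platelets, had 29.5, 17.5, 145 and 48.4 normalised counts there against a 7-library mean of 20.8. Its ratio of 2.89 was 1.53 without library 3 and 1.13 without libraries 3 and 4. TRPV3 (XM_004376248.1), a warmth sensor of keratinocytes, was the TRP row with the higher 7-library mean, with 13.5, 78.9, 118 and 18.8 in the 4 libraries against 101. The 4 libraries of TRPV3 spread on both sides of that mean, and its ratio was 0.565, or 0.366 without library 3 and 0.456 without libraries 3 and 4.

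**Figure D5:**
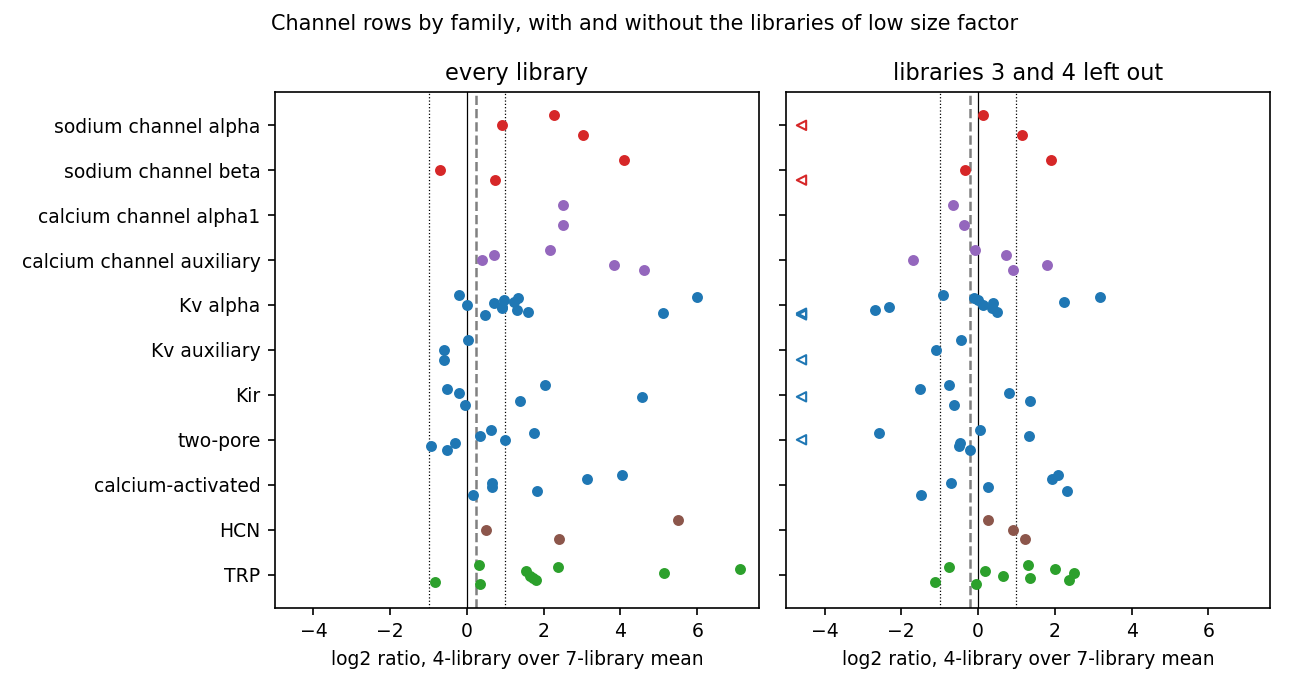
Log2 ratio of means, 4-library over 7-library, of the 61 channel rows with reads recovered in the 4-library group, by family, with every library (left) and without libraries 3 and 4 (right). The dashed line is the median of all 10144 such rows, dotted lines mark 2-fold, and open triangles at the left edge are the 7 rows with no read left. The median of the channel rows moves from 0.99 to -0.0038.

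Markers of blood cell types were examined in the same libraries. Of 7 general leukocyte genes 5 had rows, which summed to 13495 normalised counts in the 4-library mean and 10262 in the 7-library mean, with LAPTM5 the most abundant (7673 and 4508); PTPRC and LCP1 were not analysed here. Neutrophil markers, with rows for 6 of 6 genes, summed to 2676 and 12182, and S100A9 was the most abundant of them (835 and 5429). Of these, 5 were at least 2-fold higher in the 7-library mean. Platelet markers, with rows for 4 of 6 genes, summed to 10525 and 3401, led by TUBB1 (6392 and 1422), and 3 were at least 2-fold higher in the 4-library mean. T cell markers (CD2 and LCK of 6) summed to 144 and 313, B cell markers (MS4A1 and PAX5 of 5) to 394 and 460, and erythroid markers (ALAS2, SLC4A1 and KLF1 of 6) to 186 and 487. The monocyte marker CSF1R had means of 449 and 496. These marker sums differed between the groups, and the part of cell make-up in the channel results was not tested.

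Genes known from neurons and muscle were examined as well. Of 12 neuron markers 4 had rows, summing to 195 and 128 normalised counts, led by STMN2 (150 and 114). The 3 with reads recovered in the 4-library group summed to 1.28, 1.95, 93.5 and 86.1 in libraries 1 to 4. The synaptic gene SYT1 had 0, 0, 58.0 and 45.7 there, the same order of libraries as most called channels, and was not called by limma (log2 difference 2.21 ± 1.08 SE, adjusted p = 0.181), though it was without library 1 of the 4 (adjusted p from limma 0.0222, in a range of 0.0222 to 0.673 as each library was left out). Of 7 muscle markers ACTA1 alone had a row, with 1.28, 0, 9.67 and 13.5 in the 4 libraries and means of 6.10 and 2.83. The other 8 neuron and 6 muscle markers were not analysed here. The part of these cells in the channel results was not tested.

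Other genes of ion transport and of the response to calcium were taken from 4 lists of 63 genes together, of which 29 had rows. Limma called 2 of the 11 rows tested higher in the 4-library group and 0 lower, against 8.89% and 0.0263% of all rows tested. Both encode subunits of the sodium leak channel complex. UNC79 had 0, 5.84, 90.3 and 78.0 normalised counts in the 4 libraries and 2 reads in the 7 (log2 difference 4.30 ± 1.08 SE, adjusted p from limma 0.00391). UNC80 had 5.13, 8.76, 116 and 72.6 and 47 reads in the 7 (log2 difference 2.76 ± 0.74 SE, adjusted p from limma 0.00698). UNC79 came to the 10 reads needed through the 4-library group; with no filter on reads the adjusted p from limma was 0.00670 for UNC79 and 0.0121 for UNC80. In both genes, libraries 3 and 4 again held the high values. Both calls were lost without library 3 or 4 alone, with adjusted p from limma of 2.76e-05 to 0.0862 for UNC79 and 0.000319 to 0.196 for UNC80 as each library was left out. Without both libraries UNC80 had an adjusted p from limma of 0.808, and UNC79 had too few reads to test. The pore gene NALCN was not analysed here.

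Among the lists, the other cation entry and channel genes had a median log2 ratio of 0.09 over 13 rows and the sodium handling genes one of 0.47 over 8 rows, led by the sodium pump subunit ATP1B1 (1901 and 1584 normalised counts). Sodium channel partners had a median of 1.56 over 5 rows. At least 2-fold higher in the 4-library mean were 6 cation entry, 2 sodium handling and 4 partner rows, where 23.9% of all rows passed. In each of these lists 1 row was at least 2-fold higher in the 7-library mean. The 4 partner rows with reads recovered in the 4-library group summed to 2.57, 8.76, 33.8 and 35.0 normalised counts in libraries 1 to 4. In this list the ubiquitin ligase NEDD4L, which removes sodium channels from the membrane, had means of 183 and 86.8. The calcium to NFAT genes had a median of -0.71 over 7 rows, led by calmodulin CALM2 (8330 and 9564), and 3 of these rows were at least 2-fold higher in the 7-library mean, among them NFATC3 with both of its records, where 10.4% of all rows passed. The proton channel HVCN1, which supports the oxidative burst of phagocytes, had means of 95.2 and 212.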

How the data were processed

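RNA from buffy coat was sequenced in 11 manatees, 4 with red tide illness and 7 controls. The authors filtered reads with Cutadapt, mapped them to TriManLat1.0 with Bowtie2, removed duplicates and counted uniquely mapped reads per record with in-house scripts, SAMtools and DEB. What the authors deposited is a signal, counts divided by DESeq size factors and averaged over all libraries and over each group. Its fold, log2 fold, p and adjusted p columns are the authors' comparison and were not used. Symbols came from the RefSeq table of TriManLat1.0, matched without record version (10080 rows). No coordinates or lengths were used, so rankings and sums of normalised counts over genes are not corrected for length.

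Reads of single libraries were recovered where 1 combination of whole reads gave the mean to within 6e-10 below 10 and 6e-09 above, for 10144 rows of the 4-library group and 4735 of the 7-library group. Recovered counts of 2 reads (6695) outnumbered those of 1 (4208). Reads were sequenced in pairs, so counting intervals, which cover counting error only, may be too narrow. Tests were two-sided: limma 3.58.1 with a trended prior and Benjamini-Hochberg adjustment, and exact permutation over 330 choices of 4 of 11 libraries. The recovery of reads and the limma fit were tested on simulated data. As nothing links libraries to animals, p-values describe the spread between libraries.

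Members and lists were chosen with earlier results of these data known. Named are all sodium channel rows; per other family the 2 rows with the highest mean and the 2 with the largest ratio among means of at least 10; rows called by limma; and rows without overlap. A few items that this rule or the lists take are not reported here. Alternatives concerned the pseudocount, filters, centring, record version, 1 row per symbol, the test and each library in turn; leaving out libraries 3 and 4 together, and each of the 4 libraries in turn for the counts at 2-fold, was added after seeing the data. Of per-sample columns, 0 were left unused.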

Additional observations from a re-analysis of the deposited data

Results flagged for a closer look

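In SCN4A, library 6 of the 7-library group had 8.15 normalised counts, far from the other 6 libraries, whose median was 0.419. In CACNB1 the same library had 14.5, against a median of 2.54 in the others. Of 31 groups of values examined, these 2 were flagged, a share near the 1 in 20 of the 95% level used. That level may not hold for counts with many zeros. KCNMA1, where library 5 alone of the 7 had reads, at 7.23, was not flagged. Library 6 also had reads in 64.4% of the channel rows and 66.2% of all rows with reads recovered in every library, in both cases the highest share of the 7 libraries. Without it, the exact permutation p of SCN4A was 0.0286.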

How the results depend on the processing

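No paired analysis was possible because the libraries behind the means carry no replicate number and cannot be matched between groups. Of the results that answer a comparison, 69 values under an alternative kept their direction and side of the threshold or stayed near the value reported (a count within 1.5 times), 21 moved further, 8 were no longer past the threshold and 3 reversed. Of the values of the 7 called channels under an alternative, 51 kept the call and 44 were no longer past the threshold.

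The median log2 ratio of the channel rows, 0.98, was 1.78 over the 26 rows matched with the record version, 0.76 to 1.40 as each of the 4 libraries was left out, and -0.0038, reversed, without libraries 3 and 4, an alternative chosen after seeing the data. The 31 rows at least 2-fold higher in the 4-library mean became 6 of 18 with a mean of at least 10. Those were 33.3%, against 12.3% of all rows with such a mean. The 31 became 18 with the record version, and 16 without libraries 3 and 4 (26.2%, against 18.1% of all such rows). The 0 rows in the opposite direction became 1 after centring and 15 without libraries 3 and 4 (24.6%, against 27.9% of all such rows). They became 3 to 6 as each of the 4 libraries was left out, also chosen after seeing the data. Those were 4.92% to 9.84% of the channel rows with reads recovered in the 4-library group, against 14.5% to 17.8% of all such rows.

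Limma's 7 calls became 3 with no filter on reads, 0 with both means at most 8 (4 at an unadjusted p under 0.05), 1 to 10 as each library was left out, 1 without libraries 3 and 4, and 0 by the adjusted exact permutation test (9 unadjusted). Its 0 calls in the other direction were 0 under each alternative, but rows with a 7-library mean above 8 were not tested, which left little room for such calls. The exact permutation p of SCN4A ran from 0.0286 to 0.117 as each library was left out and was 0.389 without libraries 3 and 4. The difference of SCN2A XM_004375563.1, not past the threshold in any fit, reversed without library 3 and without libraries 3 and 4, with an exact permutation p of 0.6 to 0.933 as each library was left out and of 1 without both. A fit without libraries 3 and 4 has fewer libraries, and one with both means at most 8 leaves out rows with high values in the 4-library group; the cause of the other moves was not tested. Depth limits what can be seen: 46 of the 64 channel rows had a mean under 10.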
